A study of Mus musculus with 18 samples.

Results

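The M1 response of control cells is the difference between 2 groups of mouse RAW264.7 cells, an established macrophage-like line, that both received a control guide RNA and are labelled wild type. The M1 group was stimulated for 48 h with mouse interferon gamma at 2 ng/ml and bacterial lipopolysaccharide (LPS) at 0.1 µg/ml, and the M0 group was kept for 48 h without stimulation. Membership came from the sample labels alone, and it took 6 of the 18 libraries of the series, 3 in each group. The other 12 libraries hold control cells under M2 conditions (48 h with human TGF-beta 1 at 2 ng/ml plus 20 ng/ml of IL-13, IL-10 and IL-4) and the M0, M1 and M2 states of a line made deficient in Kdm7a, a histone demethylase, with CRISPR/Cas9. Poly(A) RNA was sequenced, and the deposited unit is TPM, the share of all transcripts that a gene holds, scaled to a fixed total. The labels name 1 control line and do not say that the 3 libraries of a group came from separate cultures. The p-values below therefore measure how far these libraries differ, and that spread may be technical.

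Macrophages detect LPS through Toll-like receptor 4 with its co-receptors CD14 and MD-2, and adaptor proteins carry the signal to NF-kappaB, AP-1 and interferon regulatory factors. Interferon gamma binds its own receptor, and the kinases JAK1 and JAK2 then activate STAT proteins, which act on GAS elements. Type I interferon made in response to LPS activates STAT2 with IRF9, which act on ISRE elements. The state reached with both stimuli is called classical or M1 activation and is known for cytokines, chemokines, nitric oxide, itaconate and antigen presentation.

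Under M1 stimulation 3716 of 11548 tested genes (32.2%) were higher and 6574 (56.9%) were lower at a Benjamini-Hochberg adjusted p below 0.05 by limma on log2(TPM + 1). With a change of 2-fold or more the numbers were 1681 (14.6%) and 3567 (30.9%). A log2 fold change below is the mean log2(TPM + 1) of the M1 libraries minus that of the M0 libraries, with its standard error after the ± sign, and it understates the change of genes with low TPM. A TPM value with ± is the mean and SD over 3 libraries. TPM are shares of a fixed total, and the median gene was lower under M1 by 0.38 on the log2 scale. After scaling with trimmed-mean (TMM) factors that median was 0.03, 45.8% of tested genes were higher and 43.4% lower, and 51.4% of the called genes were higher, against 36.1% on the deposited scale. Among the genes of the M1 response named below, 351 were called, the largest adjusted p was 0.0203 (Arg1), and the M0 and M1 values of all 351 did not overlap, as in 32.8% (M1 above) and 57.3% (M1 below) of all tested genes. A gene whose direction turned with that scaling is said to do so where it is named. Of the genes named below as not passing the test, Atm, Ccnd2, Ccnd3, Cd79a, Fos, Nbn, Psmb7, Slc25a1, Tnfrsf11a and Txnrd1 were called higher after it. A gene was tested if it had 1 TPM or more in 3 or more of the 18 libraries. Of the tested genes 686 were under 1 TPM in every M0 library and 951 in every M1 library, and 254 were so in both. A gene under that level in a group passed the filter through other groups, which largely fixes its direction, so counts and medians of lists that hold such genes are descriptions. The genes 2-fold or more higher held 7.42 to 7.56% of all TPM in the M0 libraries and 44.1 to 44.4% in the M1 libraries. Libraries within a group correlated across genes at Pearson r of 0.995 to 0.997, and libraries of different groups at 0.721 to 0.731. In bulk RNA, a change in the number of cells in a state and a change of RNA within each cell cannot be told apart.

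**Figure D1:**
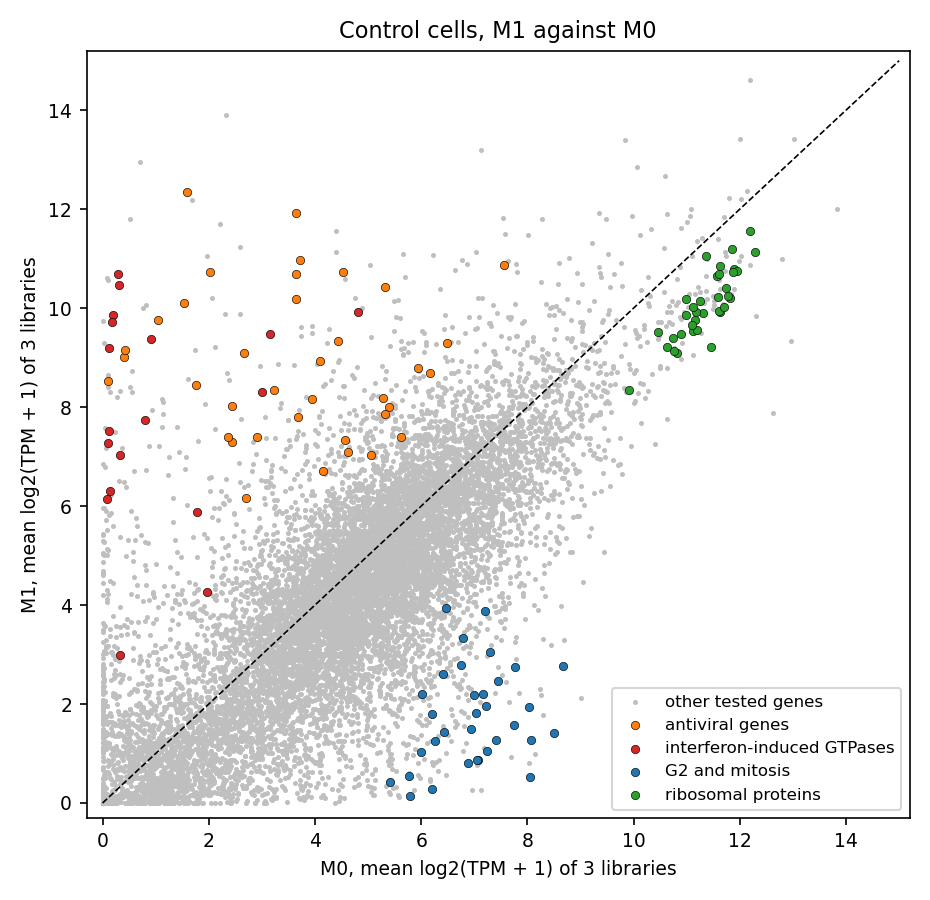
Each point is 1 of 11548 tested genes, with the mean log2(TPM + 1) of the 3 M0 libraries on the x axis and that of the 3 M1 libraries on the y axis, and colours mark 4 gene lists. Interferon-induced GTPase genes sit mostly near the left edge, antiviral genes reach further right, and both lists lie above the diagonal. Mitosis genes sit along the bottom, and ribosomal protein genes lie below the diagonal at the upper right.

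On the log2(TPM + 1) scale the rises reached further than the falls. Of the called genes, 79 rose and 21 fell by 64-fold or more on that scale, and 32 rose and none fell by 256-fold or more. The added 1 holds down the fold of a gene that is near 0 TPM in a group. As plain ratios of mean TPM, Pbk fell 687-fold and Ccna2 607-fold, and Ptgs2 rose 11061-fold. The 20 largest rises included Ptgs2, Ccl5, Nos2, Rsad2, Il6, Irg1, Csf3, Gbp2b, Gbp2, Lcn2, Gbp5, Iigp1, Cxcl2, Serpina3f, Upp1, Il27, Tgtp2, Ifit3 and Ifi205. Serpina3f, a serine protease inhibitor, was at 0, 0.05 and 0 TPM in the M0 libraries and 637, 629.7 and 628 TPM in the M1 libraries. Upp1, which splits uridine, rose from 0.783 ± 0.40 to 1076 ± 28 TPM, with a log2 fold change of 9.26 ± 0.34. Together these 20 genes made up 0.00166 to 0.00245% of all TPM in the M0 libraries and 5.51 to 5.60% in the M1 libraries. For 17 of the 20 the highest of the 3 M0 values was in M0 library 3. The 20 largest falls were Ccna2, Tk1, Ube2c, Stmn1, Pbk, Birc5, Rrm2, Fam64a, Apex1, Hpgd, Plk1, Cdc20, Ccnb2, Kif11, Nuf2, Bub1b, Ccnb1, Nusap1, Cdca3 and Srm, many of them genes of cell division. Others act elsewhere. Apex1, a base excision repair enzyme, fell from 312 ± 8.4 to 2.46 ± 0.36 TPM (log2 fold change -6.51 ± 0.084). Srm, which makes the polyamine spermidine, fell from 305 ± 8.7 to 3.57 ± 0.53 TPM (-6.07 ± 0.12), and Hpgd is described with the eicosanoid genes.

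The list of most abundant genes also turned over. In the M0 libraries it held Eef1a1, Mir6236, Ptma, Ppia, S100a4, Npm1, Rpl7, Fth1, Rplp1 and Rps3a1. In the M1 libraries it held Fth1, Ccl5, Mir6236, Ftl1, Spp1, Ccl3, Ptgs2, Prdx1, B2m and Pkm. Fth1, the ferritin heavy chain, stood at 4735, 4879 and 4437 TPM in the M0 libraries and 24612, 25132 and 25416 TPM in the M1 libraries. Eef1a1, a translation elongation factor, stood at 14356, 14845 and 14622 TPM in the M0 libraries and 3926, 4108 and 4295 TPM in the M1 libraries. The M0 and M1 values of neither gene overlapped, as in 32.8% (M1 above) and 57.3% (M1 below) of all tested genes. TPM were concentrated in fewer genes under M1. Counted from the most abundant down, 401 to 406 genes held 50% of TPM in an M0 library and 296 to 300 genes in an M1 library.

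The receptor complex for LPS changed in opposite directions. Of 18 tested genes of the LPS receptor and its adaptors, 11 rose and 5 fell, against 32.2% and 56.9% of all tested genes. The median log2 fold change of the list was 0.58 against -0.38 over all tested genes. After TMM scaling 14 of the 18 genes rose and 4 fell. Tlr4, the receptor itself, stood at 53.7, 54.1 and 59.2 TPM in the M0 libraries and 30.6, 32.0 and 29.6 TPM in the M1 libraries. Its co-receptor Cd14 stood at 608, 586 and 595 TPM in the M0 libraries and 2612, 2533 and 2550.1 TPM in the M1 libraries. Every M1 value of Tlr4 lay below, and every M1 value of Cd14 above, the M0 values, as in 57.3% and 32.8% of all tested genes. The log2 fold changes of Tlr4 and Cd14 were -0.84 ± 0.049 and 2.10 ± 0.032. Ly96, which encodes MD-2, the part of the complex that holds the lipid, rose from 26.4 ± 2.6 to 95.8 ± 6.7 TPM (1.82 ± 0.066). The adaptor genes Myd88 and Ticam1 rose by 1.02 and 1.88 on the log2 scale. Irak1, a kinase of the early complex, fell from 68.8 ± 1.1 to 22.8 ± 0.078 TPM (-1.55 ± 0.042), while Irak2, which is known for sustained signalling, rose from 29.8 ± 0.35 to 168 ± 4.4 TPM (2.45 ± 0.051). Both kinases that phosphorylate interferon regulatory factors rose, Tbk1 from 46.2 ± 1 to 156 ± 3.2 TPM and Ikbke from 23.8 ± 1.3 to 158 ± 2.9 TPM.

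Among the other pattern receptors, those for nucleic acids and for bacterial cell walls were mostly higher, and 14 of 19 tested genes rose while 3 fell. Over all tested genes 32.2% rose and 56.9% fell. Clec4e, the Mincle receptor for mycobacterial and dead-cell glycolipids, stood at 27.4, 29.0 and 28.9 TPM in the M0 libraries and 998, 1024 and 1031 TPM in the M1 libraries. Tlr3, a receptor for double-stranded RNA, rose from 6.13 ± 0.060 to 157 ± 4.2 TPM (4.46 ± 0.063), and Tlr9, a receptor for unmethylated DNA, rose from 4.69 ± 0.20 to 49.0 ± 0.55 TPM (3.14 ± 0.097). The cytosolic RNA sensors Ddx58 (RIG-I) and Ifih1 (MDA5) rose by 3.55 and 4.74 on the log2 scale. Nod1, a peptidoglycan sensor, rose from 0.753 ± 0.18 to 27.1 ± 0.87 TPM. Tlr2, a receptor for bacterial lipoproteins, moved the other way and stood at 229, 232 and 239 TPM in the M0 libraries and 53.7, 55.0 and 56.0 TPM in the M1 libraries, a log2 fold change of -2.07 ± 0.034. Mb21d1, the DNA sensor cGAS, also fell (-1.33 ± 0.047), while its partner Tmem173 (STING) rose (0.44 ± 0.041). Tlr7, a receptor for single-stranded RNA, rose slightly (0.18 ± 0.055).

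The interferon gamma receptor and its signalling chain also diverged. Ifngr1, the ligand-binding chain, stood at 55.7, 59.7 and 58.3 TPM in the M0 libraries and 17.5, 16.1 and 16.1 TPM in the M1 libraries. Ifngr2, the accessory chain, rose from 71.8 ± 0.96 to 103 ± 2.1 TPM (0.52 ± 0.035). Downstream, Jak2 rose from 12.6 ± 0.58 to 174 ± 3.5 TPM (3.68 ± 0.039), Stat2 from 19.2 ± 0.43 to 426 ± 7.0 TPM (4.40 ± 0.039) and Stat3 from 36.4 ± 0.94 to 215 ± 1.8 TPM (2.53 ± 0.036). Stat5a was lower on the deposited scale (-0.40 ± 0.056) and was not called after TMM scaling (0.07). In all, 9 of 13 tested interferon and STAT signalling genes rose and 3 fell, against 32.2% and 56.9% of all tested genes. Irf7 (6.74 ± 0.10) and Irf1 (5.32 ± 0.056), transcription factors of this axis, had larger log2 fold changes than the STAT genes just given. Irf7, a factor that amplifies type I interferon, stood at 21.0, 19.1 and 20.0 TPM in the M0 libraries and 2253, 2238 and 2239 TPM in the M1 libraries. Irf1, a primary interferon gamma response gene, stood at 18.4, 19.8 and 16.5 TPM in the M0 libraries and 780.2, 758 and 751 TPM in the M1 libraries, and Irf8, a myeloid lineage factor, rose from 66.8 ± 2.0 to 634 ± 4.8 TPM (3.23 ± 0.041). Batf2, a partner of Irf1, stood at 0.640, 1.15 and 0.940 TPM in the M0 libraries and 247, 251 and 236 TPM in the M1 libraries, and Batf rose from 2.32 ± 0.59 to 12.5 ± 0.88 TPM. Irf3 (-0.61 ± 0.05) and Irf4 (-0.68 ± 0.089) fell. The M0 and M1 values overlapped in none of these factors, as in 32.8% (M1 above) and 57.3% (M1 below) of all tested genes.

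All 5 NF-kappaB subunit genes rose, against 32.2% of all tested genes. Nfkb2 rose by 2.01, Rel by 1.57, Nfkb1 by 1.06, Rela by 0.84 and Relb by 0.72 on the log2 scale. Feedback inhibitors of the same pathways rose further, with a median log2 fold change of 2.92. Of 21 tested genes 18 were higher and 3 lower, against 32.2% and 56.9% of all tested genes. Nfkbia, which encodes the inhibitor that holds NF-kappaB in the cytoplasm, stood at 156, 158 and 161 TPM in the M0 libraries and 808, 774 and 820.1 TPM in the M1 libraries. Tnfaip3, the ubiquitin-editing enzyme A20, rose from 9.66 ± 0.83 to 127 ± 2.9 TPM (3.59 ± 0.059). Zfp36 and Zc3h12a, which encode proteins that destroy cytokine mRNAs, rose from 44.1 ± 2.2 to 1136 ± 31 TPM and from 8.01 ± 0.72 to 104 ± 2.8 TPM. Socs3, an inhibitor of cytokine receptors, stood at 15.4, 14.4 and 13.4 TPM in the M0 libraries and 823, 779 and 771 TPM in the M1 libraries, and Socs1 rose from 0.567 ± 0.045 to 47.5 ± 5.8 TPM. Usp18, an inhibitor of type I interferon signalling, rose from 11.4 ± 0.90 to 1156 ± 24 TPM (6.54 ± 0.064). Dusp1, a phosphatase for MAP kinases, rose from 3.98 ± 0.056 to 92.5 ± 5.1 TPM (4.23 ± 0.074). Each of these inhibitors was higher in all 3 M1 libraries than in any M0 library, as 32.8% of all tested genes were.

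**Figure D2:**
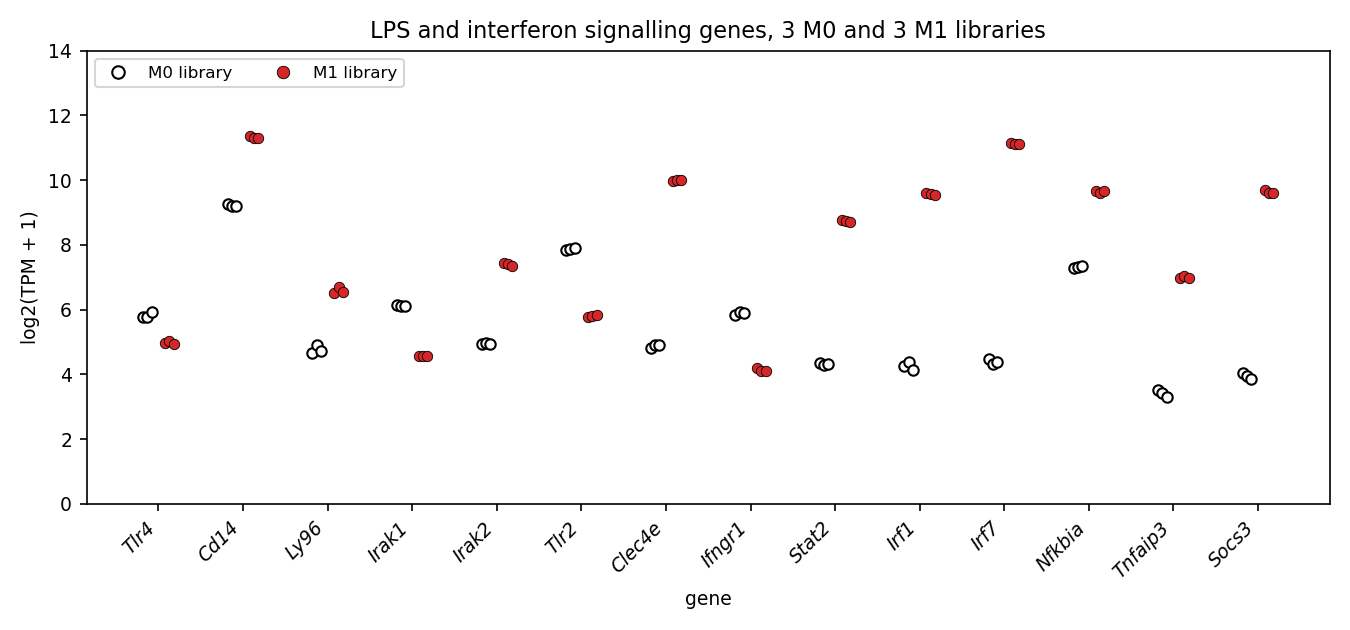
Each point is the TPM of 1 library on a log2(TPM + 1) axis, open for M0 and filled for M1, for 14 genes of LPS and interferon signalling. Tlr4, Irak1, Tlr2 and Ifngr1 have their M1 points below the M0 points, and the other 10 genes have them above.

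Stimulus-responsive transcription factors of the AP-1, CEBP, EGR and KLF families mostly rose. Of 23 tested genes 17 rose and 5 fell, against 32.2% and 56.9% of all tested genes. Of the 23 genes 4 were under 1 TPM in all M0 libraries, and of the other 19 genes 13 rose and 5 fell. Atf3, a stress-induced factor that restrains cytokine genes, stood at 51.0, 51.3 and 49.7 TPM in the M0 libraries and 1624, 1596 and 1550.3 TPM in the M1 libraries. Junb rose from 85.1 ± 2.0 to 768 ± 12 TPM (3.16 ± 0.039), Cebpb from 76.1 ± 4 to 236 ± 30.2 TPM (1.61 ± 0.20) and Cebpd from 19.8 ± 1.8 to 60.6 ± 1.7 TPM (1.57 ± 0.064). Fos, the classic immediate early gene, did not pass the test at 12.9, 13.5 and 15.1 TPM in the M0 libraries and 13.9, 14.8 and 14.2 TPM in the M1 libraries. Myc, a driver of growth and of ribosome production, stood at 0.460, 0.640 and 0.280 TPM in the M0 libraries and 56.1, 58.6 and 61.2 TPM in the M1 libraries (5.36 ± 0.081). Klf4 and Cebpa, factors of macrophage differentiation, fell from 74.8 ± 2.2 to 4.92 ± 0.54 TPM and from 8.52 ± 0.65 to 2.15 ± 0.21 TPM, with log2 fold changes of -3.68 ± 0.059 and -1.59 ± 0.088.

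Secreted products accounted for several of the largest changes. Of 29 tested cytokine genes 23 rose and 5 fell, against 32.2% and 56.9% of all tested genes. The median log2 fold change of the list was 3.10. Of the 29 cytokine genes 16 were under 1 TPM in all M0 libraries, and of the other 13 tested genes 7 rose and 5 fell. Csf3, which encodes the granulocyte growth factor G-CSF, stood at 0, 0 and 0.220 TPM in the M0 libraries and 1503, 1504 and 1557 TPM in the M1 libraries. Il6 stood at 0, 0 and 0.190 TPM in the M0 libraries and 1596, 1570.0 and 1484 TPM in the M1 libraries. Il27, the p28 chain of interleukin 27, rose from 0.693 ± 0.17 to 1030.3 ± 20.5 TPM, and its partner chain Ebi3 rose from 32.4 ± 1 to 289 ± 6.9 TPM. In each of them every M1 value lay above the M0 values, as in 32.8% of all tested genes. The interleukin 1 genes rose from under 1 TPM in each M0 library, Il1a to 73.7 ± 3.9 TPM and Il1b to 337 ± 14 TPM. The antagonist Il1rn stood at 0.300, 0.210 and 0.280 TPM in the M0 libraries and 331, 321 and 307 TPM in the M1 libraries, and Il18 rose from 27.2 ± 4.3 to 61.1 ± 1.5 TPM (1.15 ± 0.097). Tnf rose from 73.7 ± 1.5 to 2147 ± 28 TPM (4.85 ± 0.058). Il15, a survival factor for natural killer and memory T cells, rose from 3.37 ± 0.54 to 187 ± 6.3 TPM (5.43 ± 0.094). The growth factors Csf1 and Csf2 also appeared. Csf1 stood at 0.530, 0.880 and 0.540 TPM in the M0 libraries and 43.8, 40.7 and 40.0 TPM in the M1 libraries, and Csf2, listed at 0 in all M0 libraries, stood at 19.3, 20.1 and 23.1 TPM under M1. Vegfa, an angiogenic factor, rose from 45.1 ± 0.26 to 348 ± 9.0 TPM (2.92 ± 0.044).

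The genes of interferon beta and of the chains of interleukins 12 and 23 stood below Il27 and Ebi3 under M1. Ifnb1 was listed at 0 in all M0 libraries and stood at 11.9, 8.22 and 11.2 TPM under M1. Il12b, the p40 chain shared by interleukins 12 and 23, was also listed at 0 without stimulation and stood at 7.25, 10.3 and 8.16 TPM under M1. Its interleukin 23 partner Il23a rose from 2.16 ± 0.38 to 12.6 ± 1.5 TPM, and its interleukin 12 partner Il12a was listed at 0 in all 6 libraries. Il10, an anti-inflammatory cytokine, stood at 0.100, 0 and 0 TPM in the M0 libraries and 2.99, 1.91 and 1.67 TPM in the M1 libraries. Lower cytokine genes included Tnfsf9, the ligand of 4-1BB (-0.70 ± 0.043), Tnfsf13b, the B-cell factor BAFF (-1.31 ± 0.090), and Mif, a constitutively released cytokine, which fell from 1626 ± 93 to 839 ± 45 TPM (-0.95 ± 0.051).

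Of 11 CC and 10 CXC chemokine genes in the table, 9 and 5 were tested, and 9 and 5 rose, against 32.2% of tested genes. Of the tested genes 4 CC and 2 CXC genes were under 1 TPM in all M0 libraries, so their direction was largely set by the filter. The other 5 CC and 3 CXC genes also rose. The CC genes together went from 0.0271% ± 0.00085 to 2.83% ± 0.032 (SD, n = 3) of all TPM. Ccl5 (RANTES) stood at 3.37, 3.92 and 4.73 TPM in the M0 libraries and 15301, 15220.4 and 15345 TPM in the M1 libraries. Ccl3 and Ccl4, inflammatory chemokine genes, rose from 139 ± 1.1 to 9401 ± 189 TPM and from 20.2 ± 4.1 to 3013 ± 61 TPM, and since these paralogs are close in sequence their separate values are uncertain. Ccl9 rose from 106 ± 5.4 to 491 ± 13 TPM (2.2 ± 0.040). The monocyte attractants Ccl2 and Ccl7 were listed at 0 in the M0 libraries and stood at 107, 122 and 114 TPM and 2.85, 3.80 and 7.56 TPM under M1. Ccl22, a chemokine usually tied to M2 cells, was also listed at 0 without stimulation and stood at 4.24, 6.06 and 4.73 TPM under M1.

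Within the CXC family the neutrophil attractants differed widely. Cxcl2 stood at 3.75, 3.55 and 3.63 TPM in the M0 libraries and 3325, 3265 and 3420.1 TPM in the M1 libraries. Cxcl1, its close relative, was listed at 0, 0 and 0 TPM in the M0 libraries and 0.310, 0.230 and 0.220 TPM in the M1 libraries, and Cxcl3 at 0, 0 and 0 and 0.290, 1.01 and 0.430 TPM. Both were below the level needed for testing. Of the 3 interferon-induced ligands of CXCR3, Cxcl10 stood at 4.15, 3.58 and 4.21 TPM in the M0 libraries and 956, 931 and 938 TPM in the M1 libraries and Cxcl11 rose from 0.480 ± 0.23 to 314 ± 7.4 TPM, while Cxcl9 was listed at 0 in the M0 libraries and stood at only 8.48, 5.59 and 6.15 TPM under M1. Cxcl16, a membrane-bound chemokine and scavenger receptor, rose from 19.2 ± 1.5 to 172 ± 3.7 TPM (3.10 ± 0.046).

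Receptors for chemoattractants moved in both directions, 7 of 11 tested genes higher and 3 lower. Of the genes that were higher 4 were under 1 TPM in all M0 libraries, and of the other 7 tested genes 3 rose and 3 fell. Over all tested genes 32.2% rose and 56.9% fell. The monocyte receptors Ccr2 and Cx3cr1 stood at 94.8, 104 and 105 TPM in the M0 libraries and 6.13, 6.93 and 6.93 TPM in the M1 libraries for Ccr2 and at 368, 364 and 367 TPM in the M0 libraries and 30.2, 31.3 and 33.5 TPM in the M1 libraries for Cx3cr1, log2 fold changes of -3.74 ± 0.051 and -3.49 ± 0.040. Ccr1, another chemokine receptor of monocytes, rose from 0.370 ± 0.061 to 10.8 ± 0.39 TPM. Ccr7, the receptor for migration to lymph nodes, was listed at 0 in the M0 libraries and stood at 11.1, 11.0 and 12 TPM under M1. The formyl peptide receptor genes Fpr1 and Fpr2 were likewise at 0 and then at 4.82, 4.91 and 5.79 TPM and 22.8, 25.7 and 25.4 TPM. Ccrl2, an atypical receptor that presents chemerin, rose from 2.37 ± 0.52 to 567 ± 1.5 TPM (7.41 ± 0.11). The complement receptor genes C3ar1 and C5ar1 rose by 5.24 and 0.59 on the log2 scale.

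The guanylate-binding proteins (GBP) and immunity-related GTPases, which attack the vacuoles of intracellular microbes, were far more abundant under M1. All 18 tested genes were 2-fold or more higher, against 14.6% of all tested genes. Of the 18 genes 12 were under 1 TPM in all M0 libraries. Their summed share went from 0.00509% ± 0.00011 to 0.899% ± 0.025 (SD, n = 3) of TPM. Gbp5 stood at 0.0800, 0.100 and 0.250 TPM in the M0 libraries and 903, 953 and 916 TPM in the M1 libraries. Gbp2 and Gbp2b stood at 1455, 1420.1 and 1370.3 TPM and 1681, 1671 and 1590.1 TPM under M1, from under 0.5 TPM in every M0 library. Gbp3 rose from 0.893 ± 0.37 to 663 ± 8.5 TPM. Irgm1, Igtp and Iigp1 of the immunity-related family reached 973 ± 26, 712 ± 24 and 841 ± 39.9 TPM. Tgtp2 stood at 0, 0 and 0.270 TPM in the M0 libraries and 597, 592 and 575 TPM in the M1 libraries. Several of these genes have near-identical copies, and how reads were divided among copies is not given in the sources used here.

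Antiviral interferon-stimulated genes also rose, with 37 of 37 2-fold or more higher, against 14.6% of all tested genes. The median log2 fold change of the list was 4.92. Only 3 of the 37 genes were under 1 TPM in all M0 libraries. Their share went from 0.0891% ± 0.0018 to 3.05% ± 0.036 (SD, n = 3) of TPM. Isg15, a ubiquitin-like modifier, stood at 13.7, 11.7 and 9.51 TPM in the M0 libraries and 3888, 3862 and 3836 TPM in the M1 libraries. Rsad2 (viperin), which makes a chain-terminating nucleotide, and its neighbour in that pathway Cmpk2 reached 5291, 5257 and 4966 TPM and 1739, 1686 and 1653 TPM. Ifit1 and Ifit3, which bind foreign RNA, rose from 1.90 ± 0.31 to 1099.8 ± 4.1 TPM and from 1.08 ± 0.24 to 871 ± 15 TPM. Oasl1, a regulator of Irf7 translation, rose from 11.5 ± 0.64 to 1639 ± 7.9 TPM (7.03 ± 0.11). The DNA-binding family members Ifi204 and Ifi205 rose by 6.2 and 8.72 on the log2 scale. The lowest fold change of the list belonged to Adar, an RNA-editing enzyme, which rose from 48.3 ± 2.0 to 167 ± 2.2 TPM (1.77 ± 0.047).

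Promoters of 4 genes that rose are shown because they hold letters that match elements known to respond to these stimuli. Each is 300 bases, 250 before and 50 after the annotated start, from RefSeq for build GRCm38.p6, printed 5′ to 3′ on the strand of the gene, and 7005 of the 11548 tested genes had 1 promoter in that table. Capitals mark the ISRE core (GAAA, 2 bases of any kind, GAAA) and GAS TTCNNNGAA in Gbp5 (chr3:142496684-142496983, plus strand), the ISRE core in Isg15 (chr4:156200769-156201068, minus strand), the ISRE core and the NF-kappaB consensus in Cxcl10 (chr5:92348840-92349139, minus strand), and the NF-kappaB consensus in Cxcl2 (chr5:90903649-90903948, plus strand). Both strands were searched, and matches that overlap run together in the capitals. Only the elements named for a gene are marked in it. Letters that match another element, such as the NF-kappaB consensus in Gbp5, stay in small type.
Gbp5: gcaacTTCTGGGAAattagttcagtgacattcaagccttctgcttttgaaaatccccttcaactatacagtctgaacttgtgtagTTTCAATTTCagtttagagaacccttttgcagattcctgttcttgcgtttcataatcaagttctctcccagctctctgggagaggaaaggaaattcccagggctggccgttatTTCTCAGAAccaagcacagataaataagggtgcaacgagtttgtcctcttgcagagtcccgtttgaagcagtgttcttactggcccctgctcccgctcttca
Isg15: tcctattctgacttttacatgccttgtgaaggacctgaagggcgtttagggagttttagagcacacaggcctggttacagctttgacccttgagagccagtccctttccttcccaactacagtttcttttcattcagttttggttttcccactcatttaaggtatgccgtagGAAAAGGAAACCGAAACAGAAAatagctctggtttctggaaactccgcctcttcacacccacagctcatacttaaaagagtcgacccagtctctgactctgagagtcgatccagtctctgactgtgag
Cxcl10: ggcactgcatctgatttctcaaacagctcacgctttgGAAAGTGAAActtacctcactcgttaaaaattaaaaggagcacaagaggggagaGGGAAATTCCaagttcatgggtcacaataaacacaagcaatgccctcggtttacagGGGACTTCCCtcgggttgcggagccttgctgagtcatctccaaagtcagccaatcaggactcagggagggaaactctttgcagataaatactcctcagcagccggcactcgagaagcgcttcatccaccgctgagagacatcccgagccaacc
Cxcl2: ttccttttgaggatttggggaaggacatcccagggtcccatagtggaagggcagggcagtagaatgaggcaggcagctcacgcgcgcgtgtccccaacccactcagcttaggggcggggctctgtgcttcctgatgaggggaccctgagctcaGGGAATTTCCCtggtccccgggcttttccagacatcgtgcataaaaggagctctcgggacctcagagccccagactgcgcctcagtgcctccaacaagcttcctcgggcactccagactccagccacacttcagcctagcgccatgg
Counted from the annotated start, the ISRE match of Gbp5 begins at -165 and its GAS matches at -245 and -52. Isg15 has 3 overlapping ISRE matches that begin at -78, -72 and -66. Cxcl10 has an ISRE match at -213 and NF-kappaB matches at -159 and -103, and Cxcl2 has overlapping NF-kappaB matches at -97 and -96.

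The ISRE core occurred in 3.44% of the 7005 promoters of tested genes, in 9 of 9 promoters of the GTPase list, in 42.3% of 26 promoters of the antiviral list and in 28.6% of 14 promoters of the MHC class I list. It was also in 17.4% of 23 promoters of the ribosomal protein list, whose genes fell, in 1 of 3 CXC chemokine promoters, in 8% of 25 promoters of the G2 and mitosis list and in 6.67% of 15 feedback inhibitor promoters, and in none of the 19 cytokine, 5 CC chemokine, 21 G1/S and 17 ribosome biogenesis promoters. The GAS sequence occurred in 7.15% of all these promoters and in 66.7% of the 9 GTPase promoters, and its share in the other lists searched ran from 0 to 26.7%, the highest in the feedback inhibitors. The NF-kappaB consensus occurred in 4.97% of all, in 33.3% of 15 feedback inhibitor promoters, in 26.3% of 19 cytokine promoters, in 2 of 3 CXC and 1 of 5 CC chemokine promoters and in 21.4% of the 14 MHC class I promoters. In the other lists its share ran from 0 to 11.5%. These shares describe letters in a window and were not tested.

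Genes of MHC class I presentation rose, 15 of 19 tested, and 4 fell, against 32.2% and 56.9% of all tested genes. The heavy chain genes H2-K1 and H2-D1, paralogs whose separate values are uncertain, rose from 387 ± 14 to 1918 ± 45 TPM and from 652 ± 18 to 3901 ± 13 TPM, and B2m, the light chain, rose from 1538 ± 56 to 6469 ± 53 TPM (2.07 ± 0.035). Nlrc5, the transactivator of these genes, rose from 6.40 ± 0.52 to 131 ± 4.6 TPM (4.16 ± 0.067). The peptide transporter gene Tap1 and the loading factor gene Tapbp rose by 3.96 and 2.63 on the log2 scale. The exceptions were chaperones of the endoplasmic reticulum that load many proteins besides class I. Calr fell from 1625 ± 48 to 1058 ± 15 TPM (-0.62 ± 0.035), Canx from 548 ± 12 to 302 ± 5.7 TPM (-0.86 ± 0.044) and Pdia3 from 1166 ± 8.5 to 763 ± 11 TPM (-0.61 ± 0.025). Erap1, the peptide-trimming protease, was lower on the deposited scale (-0.35 ± 0.05) and higher after TMM scaling (0.14).

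The interferon-induced proteasome subunits Psmb8, Psmb9 and Psmb10 rose, and the constitutive core moved in both directions. Psmb9, an interferon-induced catalytic subunit, stood at 56.9, 60.0 and 58.0 TPM in the M0 libraries and 341, 329 and 343 TPM in the M1 libraries. Psmb6, the constitutive subunit it replaces, stood at 316, 317 and 295 TPM in the M0 libraries and 517, 525 and 519 TPM in the M1 libraries, so both rose, by 2.51 and 0.75 on the log2 scale. Psmb10 stood at 63.1, 64.2 and 63.5 TPM in the M0 libraries and 263, 266 and 266 TPM in the M1 libraries (2.04 ± 0.036), and Psmb7, its constitutive counterpart, did not pass the test (0.01 ± 0.035). Psmb8 rose from 230.0 ± 3.2 to 434 ± 10.1 TPM (0.91 ± 0.035), whereas its counterpart Psmb5 was lower on the deposited scale (-0.48 ± 0.041) and not called after TMM scaling (0.01). Over the whole constitutive core 6 of 14 genes were higher and 5 lower, against 32.2% and 56.9% of all tested genes. The median log2 fold change of the core was 0.02, and 11 of its genes were higher and 1 lower after TMM scaling.

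Of 10 tested MHC class II genes 1 rose and 5 fell, where 32.2% and 56.9% of all tested genes did. Of the 10 genes 6 were under 1 TPM in all 6 libraries and passed the filter through other groups. Of the 5 that fell 4 were under that level in all M1 libraries. Ciita, their transactivator and a known target of interferon gamma, was listed at 0.0700, 0.0800 and 0.0600 TPM in the M0 libraries and 0.0400, 0.0400 and 0.0200 TPM in the M1 libraries. H2-Aa was listed at 0, 0 and 0 and 0.0900, 0.100 and 0 TPM, H2-Eb1 at 0.0700, 0 and 0.0600 and 0.0600, 0 and 0 TPM in the same order, and neither passed the test. H2-Ab1 was lower (-0.33 ± 0.085), from 0.530, 0.440 and 0.340 to 0.0800, 0.180 and 0.170 TPM. H2-Oa, which encodes a brake on peptide loading, fell from 6.27 ± 0.56 to 0.197 ± 0.015 TPM (-2.60 ± 0.093). The exception was Cd74, the invariant chain, which rose from 506 ± 13 to 837 ± 20.2 TPM (0.72 ± 0.040). Under M2 conditions Ciita stood at 28.3 ± 0.80 TPM in the same cells.

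Costimulatory and checkpoint molecules rose, 13 of 17 tested, and 2 fell, against 32.2% and 56.9% of all tested genes. Of the 17 genes 5 were under 1 TPM in all M0 libraries, and of the other 12 genes 9 rose and 2 fell. Cd40, the receptor for T-cell help, stood at 4.78, 5.57 and 4.78 TPM in the M0 libraries and 959, 946 and 919.8 TPM in the M1 libraries. Cd274 (PD-L1), an inhibitor of T cells, stood at 3.39, 3.71 and 3 TPM in the M0 libraries and 599.7, 606 and 579 TPM in the M1 libraries. Cd80 and Cd86, ligands of CD28, rose from 6.05 ± 0.59 to 104 ± 4.1 TPM and from 11.7 ± 0.90 to 219 ± 8.3 TPM, and the adhesion molecule gene Icam1 rose from 64.3 ± 2.6 to 395 ± 8.3 TPM. These 5 genes, with activating and inhibiting roles, had log2 fold changes between 2.60 and 7.29. Slamf7, a receptor of the SLAM family, and Cd69, an activation marker, reached 395, 420.5 and 384 TPM and 227, 238 and 232 TPM. Cd47, the signal against engulfment, rose from 38.7 ± 1.3 to 379.5 ± 5.6 TPM (3.26 ± 0.033), and Sirpa, its receptor, fell from 207 ± 2.5 to 98.8 ± 3.6 TPM (-1.06 ± 0.039).

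Arginine can be used for nitric oxide, for urea and ornithine, or for polyamines, and the genes of these routes differed. Nos2, inducible nitric oxide synthase, stood at 0.360, 0.330 and 0.6 TPM in the M0 libraries and 3625, 3577 and 3515 TPM in the M1 libraries. Arg1, the cytosolic arginase, stood at 0.340, 0 and 0.0700 TPM in the M0 libraries and 0.710, 3.06 and 3.35 TPM in the M1 libraries, a log2 fold change of 1.47 ± 0.53. Its call was lost without M0 library 2, M1 library 2 or M1 library 3 (log2 fold changes 1.38, 1.27 and 1.22, limma adjusted p = 0.0544, 0.0683 and 0.0749). Arg2, the mitochondrial arginase, rose from 0.530 ± 0.15 to 38.8 ± 1.9 TPM (4.71 ± 0.11). Odc1, the first enzyme of polyamine synthesis, stood at 179, 185 and 189 TPM in the M0 libraries and 3624, 3563 and 3667 TPM in the M1 libraries. Its downstream partner Srm fell, as given above. Of the enzymes that rebuild arginine from citrulline, Asl rose (0.69 ± 0.041), and Ass1 was listed at 0 in all 6 libraries. The arginine transporter gene Slc7a1 fell from 146 ± 2.5 to 35.5 ± 0.41 TPM (-2.01 ± 0.054), and Slc7a2, its inducible relative, was listed at 0, 0 and 0 TPM in the M0 libraries and 0.0900, 0.0300 and 0 TPM in the M1 libraries. Gch1, which makes the cofactor of nitric oxide synthase, rose from 32.8 ± 0.38 to 56.7 ± 3.1 TPM (0.77 ± 0.05). Irg1, now called Acod1, which makes itaconate from a citric acid cycle intermediate, stood at 1.88, 2.37 and 2.39 TPM in the M0 libraries and 4675, 4627 and 4703 TPM in the M1 libraries.

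Genes of eicosanoid synthesis moved in both directions. Of 15 tested genes 5 rose and 9 fell, close to the shares of all tested genes (32.2% and 56.9%). Of the genes that fell 3 were under 1 TPM in all M1 libraries, and 1 that rose was so in all M0 libraries. Ptgs2, the inducible cyclooxygenase, stood at 0.290, 0.370 and 1.48 TPM in the M0 libraries and 8019.9, 7903 and 7748 TPM in the M1 libraries, while Ptgs1, the constitutive one, fell from 6.97 ± 0.49 to 0.120 ± 0.026 TPM (-2.83 ± 0.092). Ptges, the inducible prostaglandin E synthase, rose from 0.577 ± 0.17 to 20.4 ± 1.6 TPM (3.76 ± 0.092), and Hpgd, which inactivates prostaglandin E2, stood at 139.7, 116 and 140.3 TPM in the M0 libraries and 0.820, 0.5 and 0.830 TPM in the M1 libraries. Of the leukotriene enzymes Alox5 fell from 114 ± 3.6 to 3.60 ± 0.33 TPM (-4.65 ± 0.063), Lta4h from 81.9 ± 2.9 to 19.3 ± 0.18 TPM (-2.03 ± 0.040) and Ltc4s from 7.06 ± 1.9 to 0.577 ± 0.39 TPM (-2.35 ± 0.18). Pla2g4a, which releases arachidonic acid for both routes, fell from 345 ± 8.4 to 160.4 ± 5.9 TPM (-1.10 ± 0.032). Hpgds rose (0.85 ± 0.068), and Tbxas1 did not pass the test (-0.15 ± 0.11) except without M1 library 3 (-0.30).

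**Figure D3:**
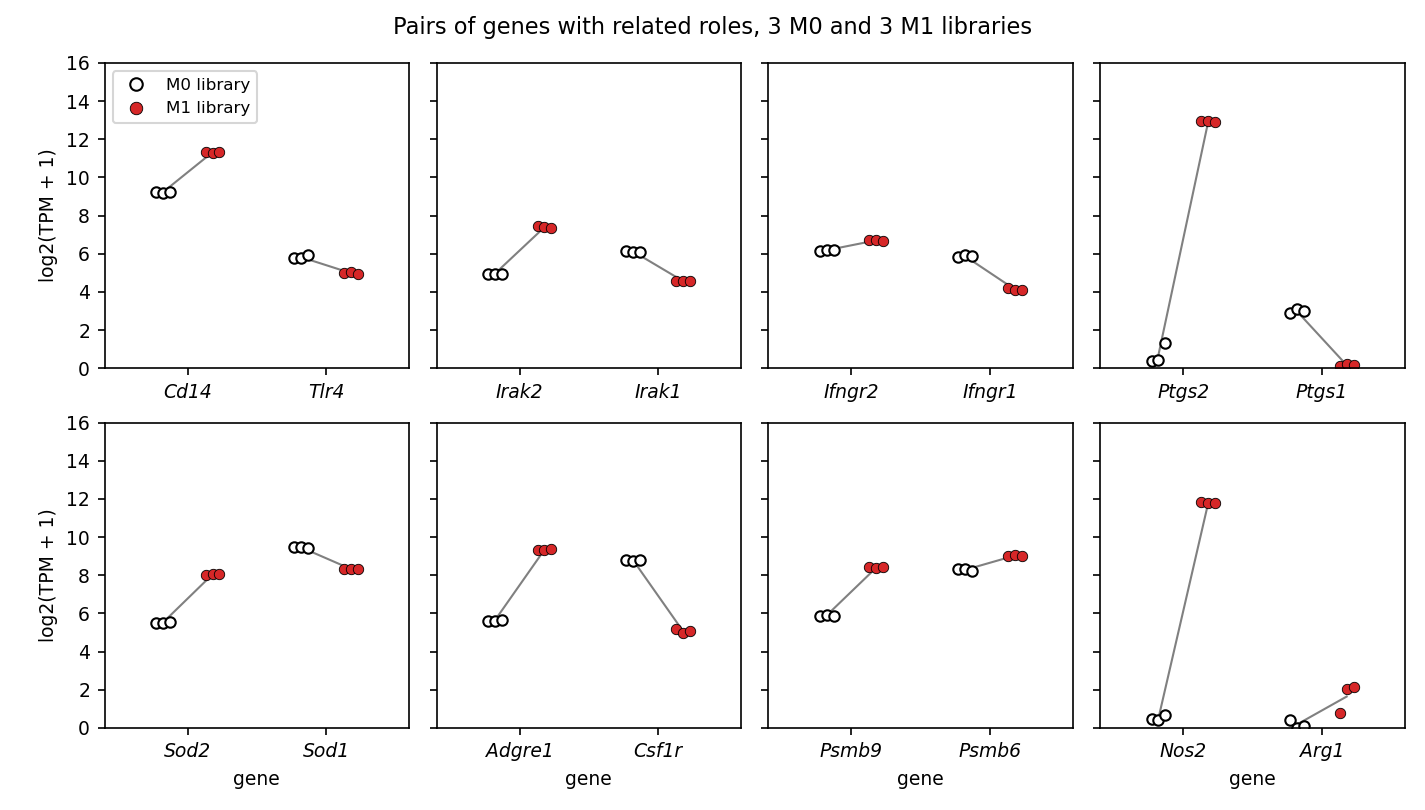
For 8 pairs of genes with related roles, each point is the TPM of 1 library on a log2(TPM + 1) axis, open for M0 and filled for M1, with lines joining the group means. In 6 pairs the first gene rose and the second fell, and Psmb9 with Psmb6 and Nos2 with Arg1 rose together.

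Genes of the NADPH oxidase, which makes superoxide, did not move as one. Cybb, its catalytic chain, rose from 607 ± 18 to 1125 ± 9.2 TPM (0.89 ± 0.030), while Ncf1 was slightly lower on the deposited scale (-0.19 ± 0.024) and higher after TMM scaling (0.30). Superoxide dismutase genes split by compartment. Sod2, the mitochondrial form, rose from 44.5 ± 1.3 to 264 ± 2.9 TPM (2.54 ± 0.034), and Sod1, the cytosolic form, fell from 703 ± 19.5 to 319 ± 2.6 TPM (-1.13 ± 0.030). The peroxiredoxin genes Prdx1 and Prdx5 rose from 1067 ± 28 to 7417 ± 156 TPM and from 129.8 ± 5.4 to 2259.8 ± 40.4 TPM, and Gpx1, a glutathione peroxidase gene, fell from 1235 ± 55 to 318 ± 11 TPM (-1.96 ± 0.037).

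Targets of the oxidant-sensing factor NRF2 did not move as a block, with 6 of 13 tested genes higher and 5 lower. Over all tested genes 32.2% were higher and 56.9% lower. Hmox1, which degrades haem, rose from 108 ± 2.8 to 2003 ± 72 TPM (4.21 ± 0.042). Slc7a11, the cystine importer, and Srxn1, sulfiredoxin, rose by 2.46 and 2.37 on the log2 scale, and Gclm rose by 0.91, while Gclc, the catalytic partner of Gclm, fell (-1.58 ± 0.047). Txnrd1 did not pass the test (0.06 ± 0.038) except without M0 library 3 (0.09). Nqo1, a standard target of the factor, was listed at 0.0800, 0.270 and 0.250 TPM in the M0 libraries and 0.240, 0 and 0.130 TPM in the M1 libraries.

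Iron handling genes made up 0.916% ± 0.035 of TPM without stimulation and 3.73% ± 0.052 (SD, n = 3) under M1. Fth1 and Ftl1 held most of that share in both groups. Of 13 tested genes of the list 7 rose and 6 fell, against 32.2% and 56.9% of all tested genes. The storage genes rose, Fth1 by 2.42 on the log2 scale and Ftl1, the ferritin light chain, from 4126 ± 134 to 10892 ± 126 TPM (1.40 ± 0.032). Genes of transferrin iron uptake fell. Tfrc, the transferrin receptor, fell from 103 ± 2.9 to 41.8 ± 0.56 TPM (-1.28 ± 0.053) and Steap3, its iron reductase, from 12.9 ± 0.34 to 0.5 ± 0.21 TPM (-3.22 ± 0.091). Slc11a1, which pumps metal ions out of the phagosome, rose from 34.4 ± 1.8 to 219 ± 5.0 TPM (2.63 ± 0.044). Slc40a1, the iron exporter ferroportin, rose from 3.78 ± 0.18 to 20.9 ± 1.2 TPM (2.19 ± 0.071). Lcn2, which captures bacterial iron carriers, was listed at 0 in the M0 libraries and stood at 814, 873 and 877 TPM under M1. Slc39a14, an importer of iron and zinc, fell from 80.5 ± 3 to 28.4 ± 0.22 TPM (-1.47 ± 0.045).

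Of 23 tested genes of glucose uptake and glycolysis 18 rose and 3 fell, against 32.2% and 56.9% of all tested genes. Of the 3 that fell 2 did so by 2-fold or more. Slc2a1 (GLUT1) rose from 141 ± 6.1 to 1174 ± 15 TPM (3.05 ± 0.043). Of the hexokinases Hk1 rose from 88.7 ± 3.5 to 489.7 ± 1.5 TPM (2.45 ± 0.049), Hk3 from 52.8 ± 2.2 to 554 ± 8.8 TPM (3.37 ± 0.045) and Hk2 from 59.7 ± 2.9 to 93.7 ± 1.9 TPM (0.64 ± 0.069). Pfkfb3, which makes the activator of phosphofructokinase, stood at 26.7, 25.3 and 24.8 TPM in the M0 libraries and 394, 379 and 381 TPM in the M1 libraries. Among the phosphofructokinase genes Pfkp rose (1.29 ± 0.045) and Pfkm fell (-1.59 ± 0.061). Of the last enzymes of the route, Pkm rose by 0.23 and Ldha by 0.13 on the log2 scale, and the lactate exporter gene Slc16a3 by 0.95. Slc2a6 rose by 0.17.

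The citric acid cycle and the respiratory chain were lower almost throughout. Of 23 citric acid cycle and citrate genes 22 fell and 0 rose, against 56.9% and 32.2% of all tested genes. The median log2 fold change of the list was -1.02. After TMM scaling it was -0.53, and 20 genes fell and 3 rose. Idh2, the mitochondrial NADP-linked isocitrate dehydrogenase, stood at 315, 318 and 307 TPM in the M0 libraries and 9.11, 8.09 and 9.49 TPM in the M1 libraries (-4.99 ± 0.067). Idh3a, a subunit of the NAD-linked enzyme of the cycle, fell from 168 ± 4.9 to 22.4 ± 2.3 TPM (-2.86 ± 0.057), and Idh1, the cytosolic enzyme, changed by -1.40 on the log2 scale. The enzymes after succinate fell too, Sdha from 229 ± 2.6 to 79.4 ± 2.1 TPM (-1.52 ± 0.032) and Fh1 from 335 ± 6.7 to 56.6 ± 2.5 TPM (-2.55 ± 0.035). Cs fell by 0.82 and Ogdh by 0.83 on the log2 scale. Slc25a1, the mitochondrial citrate exporter, did not pass the test (0.05 ± 0.036), and Acly, which cleaves the exported citrate, was lower on the deposited scale (-0.27 ± 0.038) and higher after TMM scaling (0.22).

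All 31 tested oxidative phosphorylation genes were lower, against 56.9% of all tested genes, with a median log2 fold change of -1.11. After TMM scaling the median was -0.62, and 28 were lower and 1 higher (Ndufs3, 0.25 against -0.24). Log2 fold changes were -0.93 for Ndufa9, -1.11 for Ndufb8 and -1.31 for Ndufs1 of complex I, -1.33 for Uqcrc1 of complex III, -0.93 for Cox4i1 and -0.97 for Cox5a of complex IV, and -1.29 for Atp5a1 and -1.05 for Atp5b of the ATP synthase. Atp5g1, a gene for the rotor ring, fell furthest in the list, from 342 ± 11 to 43.7 ± 3.4 TPM (-2.94 ± 0.053).

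Genes of lipid synthesis fell. Of 25 cholesterol and fatty acid synthesis genes 22 fell and 3 rose, against 56.9% and 32.2% of all tested genes. The median log2 fold change of the list was -1.82. Srebf2, the transcription factor of the sterol pathway, fell from 116 ± 3.9 to 41.0 ± 2.1 TPM (-1.48 ± 0.049). Its target Hmgcs1 fell by 0.93 on the log2 scale. Larger falls came at later steps of the pathway, with Idi1 (-2.61 ± 0.048), Fdps (-3.14 ± 0.028), Sqle (-1.72 ± 0.035), Lss (-1.52 ± 0.041) and Dhcr7 (-3.22 ± 0.048). Fasn, fatty acid synthase, stood at 83.5, 78.6 and 76.2 TPM in the M0 libraries and 6.15, 6.15 and 5.89 TPM in the M1 libraries. The desaturase genes Scd1 and Scd2 fell from 157 ± 2.3 to 8.15 ± 0.23 TPM and from 754 ± 6.6 to 83.4 ± 5.0 TPM. Genes that rose included Insig2 (0.71 ± 0.051) and Ch25h, which makes 25-hydroxycholesterol and was listed at 0, 0 and 0 and 2.60, 2.96 and 2.83 TPM.

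Lipid uptake genes split. Cd36, a fatty acid transporter and scavenger receptor, stood at 0.210, 0.240 and 0.450 TPM in the M0 libraries and 136, 150.1 and 143 TPM in the M1 libraries, and Msr1, the class A scavenger receptor, rose from 12.4 ± 0.83 to 782 ± 12 TPM (5.87 ± 0.065). Plin2, the coat protein of lipid droplets, rose from 94.4 ± 4.4 to 782 ± 10.3 TPM (3.04 ± 0.034). Trem2, a lipid-sensing receptor, stood at 303, 306 and 298 TPM in the M0 libraries and 4.29, 4.10 and 3.40 TPM in the M1 libraries, a log2 fold change of -5.95 ± 0.090, and Lpl, lipoprotein lipase, fell from 165 ± 2.4 to 24.9 ± 0.24 TPM (-2.68 ± 0.044). The efflux gene Abca1 rose from 0.227 ± 0.065 to 1.97 ± 0.17 TPM, and Abcg1 was lower on the deposited scale (-0.25 ± 0.061) and higher after TMM scaling (0.21). Mrc1 was at 0.0700, 0.150 and 0.140 TPM in the M0 libraries and 0.390, 0.470 and 0.320 TPM in the M1 libraries. Pparg was listed at 0.140, 0 and 0 TPM in the M0 libraries and 0, 0 and 0 TPM in the M1 libraries, and Marco at 0 in all 6.

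Macrophage identity genes did not change as a unit. Csf1r, the receptor for the survival factor of macrophages, stood at 450.5, 432 and 446 TPM in the M0 libraries and 35.3, 30.2 and 33.2 TPM in the M1 libraries (-3.71 ± 0.053). Adgre1, which encodes the F4/80 antigen, stood at 47.4, 47.4 and 49.4 TPM in the M0 libraries and 642, 641 and 658 TPM in the M1 libraries (3.72 ± 0.041). The values of these standard macrophage markers did not overlap between groups and moved in opposite directions. Of all tested genes 32.8% had all M1 values above the M0 values and 57.3% had them below. Spi1, which encodes the lineage factor PU.1, was slightly lower on the deposited scale (-0.16 ± 0.036) and higher after TMM scaling (0.34). Lyz2 fell from 3631 ± 90.4 to 1255 ± 56 TPM (-1.53 ± 0.040) and Cd68 from 689 ± 26 to 324 ± 14 TPM (-1.08 ± 0.047), while Itgam (CD11b) rose from 149 ± 2.9 to 435 ± 1.8 TPM (1.54 ± 0.045). The Fc receptor genes rose, Fcgr1 by 2.02, Fcgr2b by 0.53 and Fcgr4 by 5.57 on the log2 scale. Mitf and Axl rose by 0.68 and 1.33, and Mertk was listed at 0, 0 and 0 and 0.150, 0.120 and 0.220 TPM in the M0 and M1 libraries. In all 14 of 22 tested genes of the list rose and 7 fell, against 32.2% and 56.9% of all tested genes.

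RAW264.7 cells can also form osteoclasts. Nfatc1, the master factor of that fate, fell from 49.8 ± 1.9 to 15.9 ± 0.98 TPM (-1.59 ± 0.074). Acp5 rose from 1.78 ± 0.41 to 13.4 ± 1.4 TPM (2.37 ± 0.13) and Dcstamp, needed for cell fusion, from 3.51 ± 0.37 to 6.64 ± 0.64 TPM (0.76 ± 0.12). Tnfrsf11a, the receptor RANK, did not pass the test (-0.02 ± 0.074). Ctsk was called higher at 0.240, 0.0700 and 0.0600 TPM in the M0 libraries and 1.01, 1.08 and 0.320 TPM in the M1 libraries, and Mmp9 and Atp6v0d2 stayed under 1 TPM in all 6 libraries. In all 3 of 6 tested genes of the list rose and 2 fell, against 32.2% and 56.9% of all tested genes.

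Lysosomal genes rose, 21 of 26 tested, and 4 fell, where 32.2% and 56.9% of all tested genes did. The median log2 fold change of the list was 0.96. The protease genes Ctsb, Ctsd, Ctsl and Ctss rose by 1.46, 1.49, 2.31 and 0.87 on the log2 scale. Lamp2 rose from 197 ± 13 to 906 ± 8.5 TPM (2.2 ± 0.037) and Lamp1 from 727 ± 7.7 to 939 ± 0.95 TPM (0.37 ± 0.027). Sqstm1, the autophagy receptor p62, stood at 313, 318 and 301 TPM in the M0 libraries and 3507, 3573 and 3683 TPM in the M1 libraries. Tfeb, a transcription factor for lysosomal genes, fell from 28.3 ± 1.8 to 4.44 ± 0.57 TPM (-2.43 ± 0.072).

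Genes of inflammasomes and cell death rose, 19 of 24 tested, and 1 fell, against 32.2% and 56.9% of all tested genes. That 1, Nlrp1b, was lower on the deposited scale (-0.51 ± 0.05) and not called after TMM scaling (-0.04). Casp4, the mouse caspase-11 that binds cytosolic LPS, stood at 16, 14.5 and 16 TPM in the M0 libraries and 471, 469 and 459 TPM in the M1 libraries. Nlrp3 rose from 73.0 ± 3.9 to 328 ± 1.3 TPM (2.16 ± 0.042), Casp1 from 57.6 ± 3.6 to 388 ± 1.3 TPM (2.73 ± 0.039) and Gsdmd, the pore former, from 69.6 ± 2.3 to 234 ± 6.3 TPM (1.74 ± 0.037). The adaptor that links NLRP3 to caspase-1, Pycard, was listed at 0, 0 and 0.05 TPM in the M0 libraries and 0, 0 and 0 TPM in the M1 libraries. Of the necroptosis genes Zbp1, the nucleic acid sensor, rose from 2.10 ± 0.54 to 381 ± 13 TPM, Mlkl, the executioner, rose from 22.2 ± 0.34 to 345 ± 2.4 TPM, and Ripk3, the kinase between them, rose from 57.5 ± 2.2 to 107 ± 0.93 TPM. Fas, the death receptor, stood at 1.59, 0.770 and 1.20 TPM in the M0 libraries and 289.9, 286 and 286 TPM in the M1 libraries.

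Survival genes rose as well, 10 of 12, and 2 fell, against 32.2% and 56.9% of all tested genes. Traf1 stood at 4.21, 3.84 and 4.55 TPM in the M0 libraries and 373, 366 and 373 TPM in the M1 libraries. Cflar, the inhibitor of caspase-8, rose from 41.9 ± 0.76 to 326 ± 5.3 TPM (2.93 ± 0.041), Bcl2l1 (BCL-XL) from 15.8 ± 0.63 to 221 ± 1.1 TPM (3.73 ± 0.043) and Birc3 from 40.1 ± 1.7 to 132 ± 3.8 TPM (1.69 ± 0.048). Mcl1 and Bcl2, from the same family as Bcl2l1, fell from 1417 ± 82 to 837 ± 25 TPM and from 9.77 ± 0.25 to 4.12 ± 0.44 TPM, with log2 fold changes of -0.76 ± 0.049 and -1.08 ± 0.092.

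The genes of G2 and mitosis had the lowest median log2 fold change of the 43 lists. All 33 tested genes of G2 and mitosis were 2-fold or more lower, against 30.9% of all tested genes, with a median log2 fold change of -5.22. Of the 33 genes 8 were under 1 TPM in all M1 libraries, so their direction was largely set by the filter. The share of TPM held by the list went from 0.481% ± 0.0028 to 0.0111% ± 0.000064 (SD, n = 3). Ccna2, cyclin A2, stood at 255, 267 and 273 TPM in the M0 libraries and 0.410, 0.590 and 0.310 TPM in the M1 libraries. Ube2c, the ubiquitin-conjugating enzyme of mitotic exit, stood at 359, 365 and 353 TPM in the M0 libraries and 1.36, 2.26 and 1.48 TPM in the M1 libraries. Plk1, a mitotic kinase, stood at 132, 142 and 128 TPM in the M0 libraries and 0.930, 0.910 and 0.640 TPM in the M1 libraries. In all of these the M1 values were below 3 TPM in every library. The proliferation marker Mki67 fell from 217 ± 21 to 5.70 ± 0.53 TPM (-5.02 ± 0.14) and Top2a from 409 ± 4.4 to 5.77 ± 0.14 TPM (-5.92 ± 0.045). Cdk1, Aurka and Foxm1, the kinases of mitotic entry and spindle and the transcription factor of this phase, fell by 4.96, 4.25 and 5.01 on the log2 scale. The log2 fold changes of Cdc20, Birc5 and Ccnb1 were -6.19, -6.80 and -6.08.

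Genes of the G1 to S transition fell in 31 of 34 cases, and 1 rose, against 56.9% and 32.2% of all tested genes. Of the 34 genes 4 were under 1 TPM in all M1 libraries. Every subunit of the replicative helicase fell, with Mcm6, for example, at 343, 354 and 348 TPM in the M0 libraries and 8.40, 7.58 and 8.40 TPM in the M1 libraries. Log2 fold changes were -5.18 for Mcm2 and -5.15 for Mcm5. Genes of nucleotide supply fell, with Rrm2 at 199, 206 and 209 TPM in the M0 libraries and 0.980, 0.970 and 0.740 TPM in the M1 libraries, and Tk1, thymidine kinase, at 285, 289 and 272 TPM in the M0 libraries and 0.930, 1.42 and 0.680 TPM in the M1 libraries. E2f1, the transcription factor of this phase, fell from 33.3 ± 2.3 to 9.01 ± 0.6 TPM (-1.78 ± 0.058), and Ccne1, cyclin E1, fell from 48.5 ± 0.82 to 9.57 ± 0.62 TPM (-2.23 ± 0.051). Pcna, the polymerase clamp, changed less, from 698 ± 23 to 358 ± 11 TPM (-0.96 ± 0.035). Dnmt1, which copies DNA methylation, fell from 166 ± 7.3 to 25.6 ± 1.1 TPM (-2.65 ± 0.057). The cyclin genes of early G1 changed less. Ccnd1 fell from 233 ± 1.8 to 137 ± 2.6 TPM (-0.76 ± 0.031), Ccnd2 and Ccnd3 did not pass the test (0.02 ± 0.059 and 0.09 ± 0.042; Ccnd3 was called at 0.11 without M0 library 2 or M1 library 1), and of their kinases Cdk4 fell from 611 ± 12 to 133 ± 6.4 TPM (-2.19 ± 0.032) while Cdk6 rose from 31.0 ± 0.87 to 60.3 ± 1.8 TPM (0.94 ± 0.069).

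Inhibitors of the cycle rose in part. Cdkn1a (p21) stood at 219, 218 and 234 TPM in the M0 libraries and 1676, 1714 and 1690.2 TPM in the M1 libraries (2.92 ± 0.044). Cdkn1b rose from 29.5 ± 2.0 to 61.2 ± 2.6 TPM (1.03 ± 0.062), Cdkn2d from 88.1 ± 4.1 to 113 ± 3.7 TPM (0.36 ± 0.038) and Cdkn2c fell from 68.1 ± 2.3 to 17.2 ± 0.97 TPM (-1.93 ± 0.041). Growth arrest genes Gadd45b, Ccng2 and Btg2 rose by 4.72, 2.05 and 0.71 on the log2 scale. The pocket protein genes Rbl1 and Rbl2 fell by 1.5 and 1.25 on the log2 scale. DNA repair genes fell in 18 of 20 cases, against 56.9% of all tested genes, with a median log2 fold change of -3.45. Of the 20 genes 7 were under 1 TPM in all M1 libraries. The homologous recombination gene Brca1 fell from 25 ± 1 to 1.37 ± 0.058 TPM, Chek1, a checkpoint kinase, fell from 30.2 ± 0.42 to 0.597 ± 0.14 TPM, and Parp1 fell from 280.5 ± 1.3 to 22.0 ± 1.5 TPM. Atm and Nbn, which act at double-strand breaks, did not pass the test (0.18 ± 0.095 and -0.05 ± 0.058), and Atm was called at 0.25 without M1 library 3.

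Promoters of 3 of the genes that fell are shown, since cell cycle genes are known to share short elements near their starts. They are from the same table and build and follow the same rules. Capitals mark the CCAAT box CCAAT and the CHR TTTGAA in Ube2c (chr2:164769679-164769978, plus strand) and in Cdc20 (chr4:118437294-118437593, minus strand), and the E2F site TTTCCCGC or TTTGGCGC in Mcm6 (chr1:128359656-128359955, minus strand).
Ube2c: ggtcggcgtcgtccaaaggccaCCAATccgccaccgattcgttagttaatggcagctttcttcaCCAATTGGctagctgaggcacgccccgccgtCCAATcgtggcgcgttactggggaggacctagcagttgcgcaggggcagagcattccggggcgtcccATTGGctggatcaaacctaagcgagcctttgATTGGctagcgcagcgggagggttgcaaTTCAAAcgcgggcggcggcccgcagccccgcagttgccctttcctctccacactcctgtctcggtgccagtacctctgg
Cdc20: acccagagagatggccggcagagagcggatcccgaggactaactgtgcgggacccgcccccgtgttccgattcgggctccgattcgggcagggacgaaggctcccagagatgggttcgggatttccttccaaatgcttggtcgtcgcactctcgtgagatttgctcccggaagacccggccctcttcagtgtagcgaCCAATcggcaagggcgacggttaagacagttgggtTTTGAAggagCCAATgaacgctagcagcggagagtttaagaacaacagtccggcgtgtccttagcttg
Mcm6: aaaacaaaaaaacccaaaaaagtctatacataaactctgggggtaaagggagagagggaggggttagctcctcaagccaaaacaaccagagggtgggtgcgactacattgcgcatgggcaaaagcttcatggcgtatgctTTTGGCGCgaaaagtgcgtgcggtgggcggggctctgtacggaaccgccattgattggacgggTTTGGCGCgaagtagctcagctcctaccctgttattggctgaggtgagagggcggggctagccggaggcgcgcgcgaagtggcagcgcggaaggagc
Ube2c has 6 CCAAT boxes, and its CHR begins at -29. Cdc20 has CCAAT boxes at -53 and -8 and a CHR at -18, and Mcm6 has E2F sites at -110 and -47. The CHR occurred in 12.1% of promoters of tested genes and in 72.0% of 25 promoters of the G2 and mitosis list, and CCAAT in 40.2% and 80.0%. Lists that rose held these letters too. The CHR was in 4 of 9 GTPase promoters, in 30.8% of 26 antiviral promoters and in 1 of 5 CC chemokine promoters, and CCAAT in 71.4% of 14 MHC class I promoters and in 2 of 3 CXC chemokine promoters. In the G1/S list the CHR was in 4.76% and CCAAT in 57.1% of 21 promoters. The E2F site occurred in 3.48% of promoters of tested genes, in 38.1% of 21 promoters of the G1/S list, in 17.6% of 17 ribosome biogenesis promoters, in 14.3% of the 14 MHC class I promoters and in 4% of those of the G2 and mitosis list. No test was made of these shares.

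**Figure D4:**
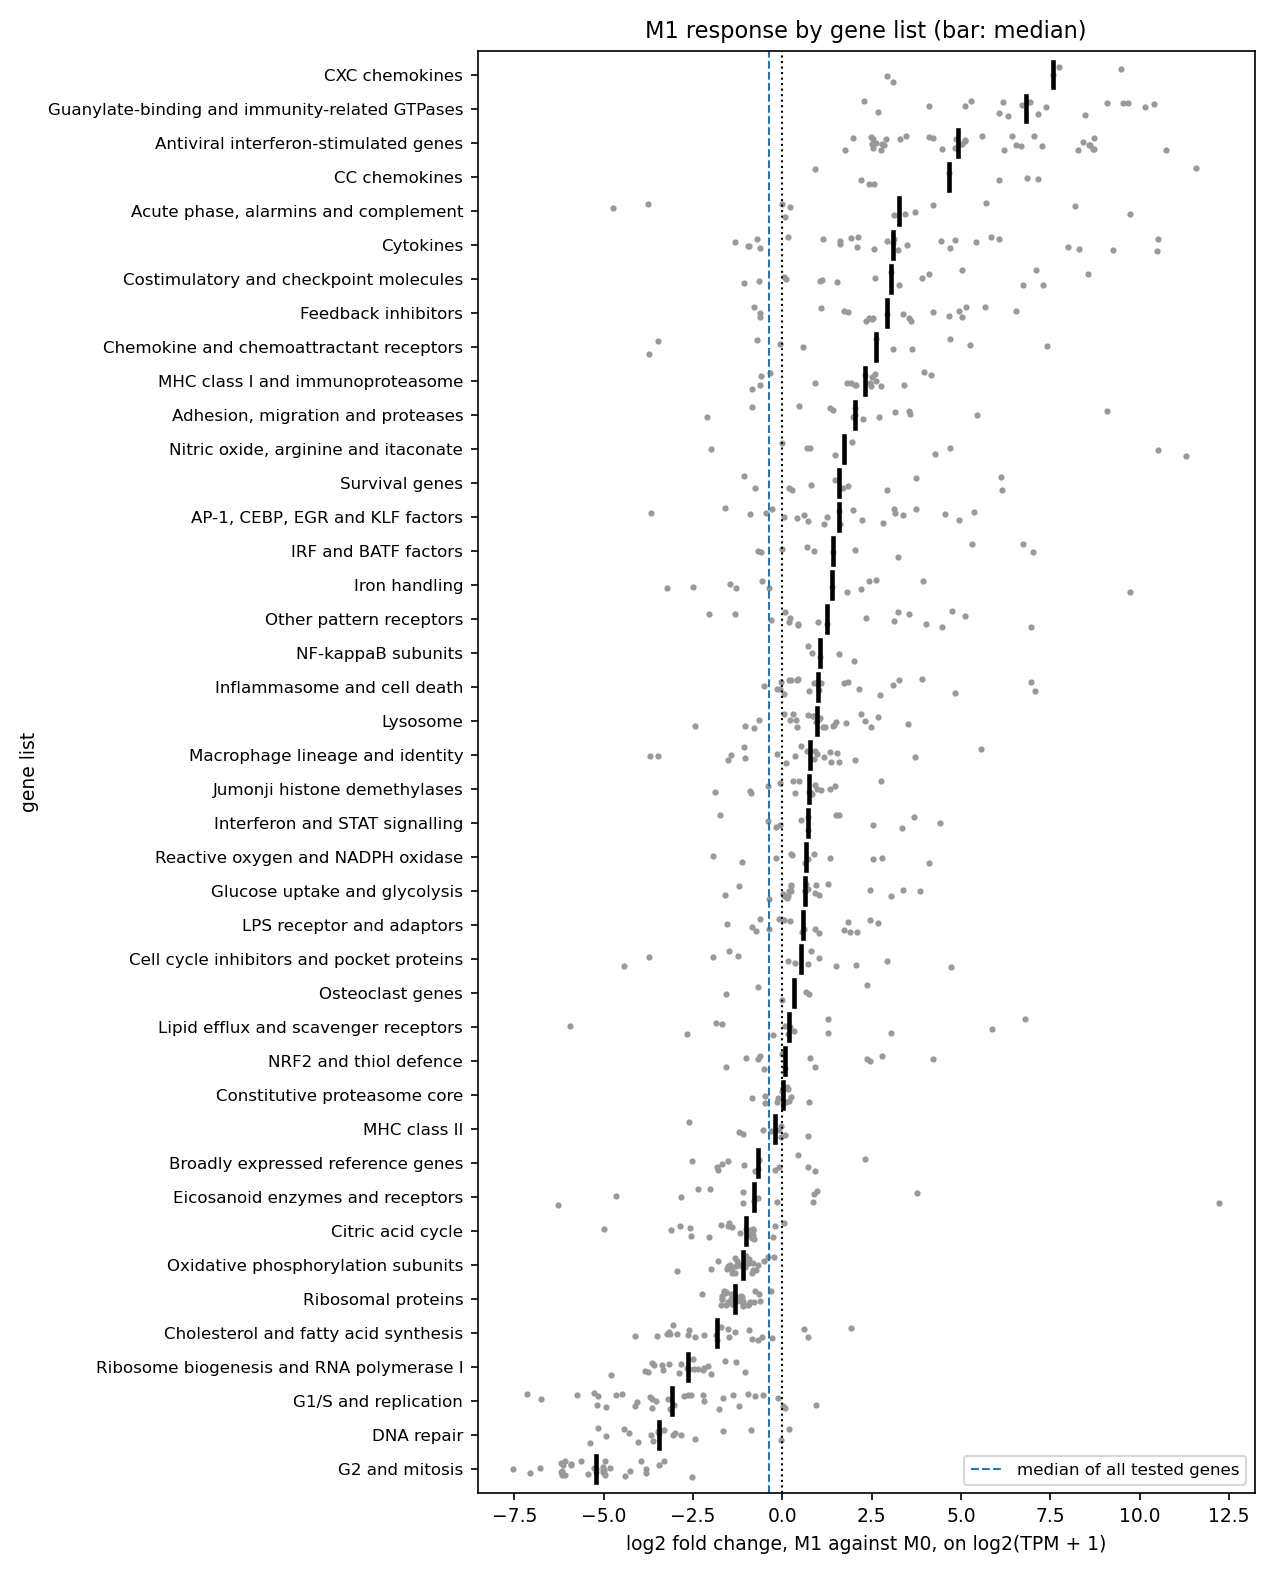
Each grey point is the log2 fold change of 1 tested gene and each bar the median of its list, for 42 gene lists ordered by median, with a dashed line at the median of all tested genes on the deposited scale and a dotted line at 0. Chemokine, GTPase and antiviral lists have every tested gene above 0, and mitosis, ribosome biogenesis, ribosomal protein and oxidative phosphorylation lists have every tested gene below 0.

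Genes for ribosomal proteins and for the factors that assemble ribosomes fell. All 35 tested ribosomal protein genes were lower, against 56.9% of all tested genes, with a median log2 fold change of -1.34. Their share went from 9.66% ± 0.051 to 4.2% ± 0.041 (SD, n = 3) of TPM. After TMM scaling the median was -0.84, and 34 were lower and 1, Rps20, was higher (0.17 against -0.32). Log2 fold changes were -2.24 for Rpl3, -0.77 for Rplp0, -1.63 for Rps2 and -1.26 for Rps6. Ribosomal protein genes have many processed copies in the genome, and the assignment of their reads is not given. All 22 ribosome biogenesis and RNA polymerase I genes were 2-fold or more lower, against 30.9% of all tested genes, with a median of -2.64. Ncl, nucleolin, stood at 878, 845 and 848 TPM in the M0 libraries and 111, 115 and 119 TPM in the M1 libraries. Npm1, nucleophosmin, fell from 5082 ± 128 to 922 ± 25 TPM (-2.46 ± 0.034), and Fbl, the rRNA methyltransferase, from 384 ± 8.1 to 37.2 ± 1.1 TPM (-3.33 ± 0.034). Nop56 and Polr1b fell by 3.17 and 3.59 on the log2 scale. Myc, which is known to drive many of these genes, rose in the same libraries, as given above.

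**Figure D5:**
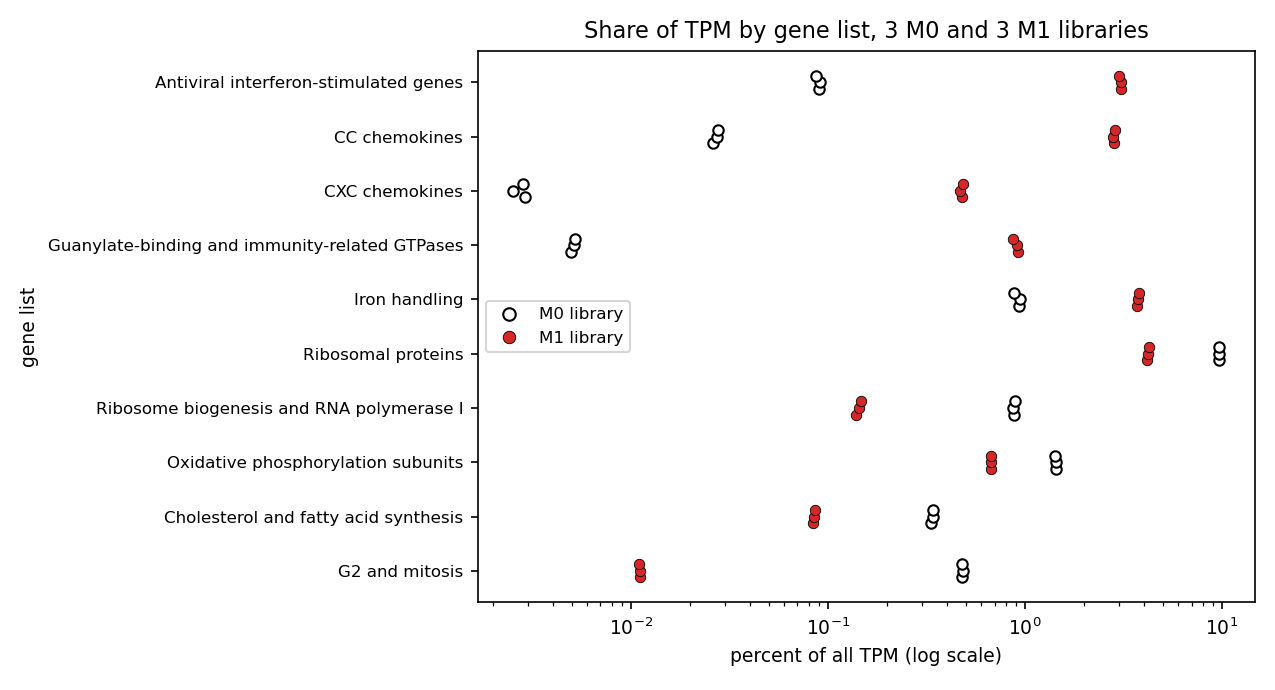
Each point is the percent of all TPM held by 1 of 10 gene lists in 1 library, on a log axis, open for M0 and filled for M1. Antiviral, chemokine, GTPase and iron handling genes hold more of the TPM under M1, and ribosomal protein, ribosome biogenesis, oxidative phosphorylation, lipid synthesis and mitosis genes hold less. The iron handling share is mostly that of Fth1 and Ftl1.

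Kdm7a, the gene targeted elsewhere in the series, stood at 11.3, 11.0 and 11.0 TPM in the M0 libraries and 30.3, 30.0 and 28.7 TPM in the M1 libraries in these control cells, a log2 fold change of 1.34 ± 0.068 (adjusted p = 1.36e-13). Of 17 Jumonji histone demethylase genes 12 rose and 4 fell, against 32.2% and 56.9% of all tested genes. The largest rise was that of Kdm5b, which acts on lysine 4 of histone H3, from 8.46 ± 0.19 to 62.7 ± 1 TPM (2.75 ± 0.073). Kdm6b, an enzyme for lysine 27 that is known to respond to LPS, rose from 11.9 ± 1.1 to 26.0 ± 0.29 TPM (1.08 ± 0.084). Kdm2b fell from 40.2 ± 1.5 to 10.1 ± 1.1 TPM (-1.89 ± 0.062).

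Adhesion and matrix genes rose in 13 of 15 tested cases, and 2, Itga4 and Plau, fell, against 32.2% and 56.9% of all tested genes. Of the 15 genes 4 were under 1 TPM in all M0 libraries, and of the other 11 genes 9 rose and 2 fell. Spp1, the secreted adhesion protein osteopontin, stood at 894, 884 and 975 TPM in the M0 libraries and 10815, 10432 and 11149 TPM in the M1 libraries. Plaur, the receptor of urokinase, rose from 44.7 ± 2.8 to 216 ± 10.3 TPM (2.24 ± 0.055), while Plau, urokinase itself, fell from 66.4 ± 0.77 to 36.6 ± 1.2 TPM (-0.84 ± 0.045). Serpinb2 stood at 0.120, 0.05 and 0 TPM in the M0 libraries and 43.7, 47.4 and 44.2 TPM in the M1 libraries. The integrin gene Itga5, a fibronectin receptor chain, rose from 37.5 ± 2.3 to 457 ± 3.1 TPM (3.57 ± 0.048) and Itgal from 8.21 ± 0.46 to 35.2 ± 1.6 TPM (1.97 ± 0.075), while Itga4 fell from 296 ± 17 to 67.9 ± 0.81 TPM (-2.10 ± 0.079). Sdc4 and Cd44 rose by 3.16 and 0.47 on the log2 scale. The collagenase gene Mmp13 and the elastase gene Mmp12 reached 2.83, 3.81 and 2.63 TPM and 6.51, 5.95 and 4.59 TPM, and Mmp14 and Thbs1 stayed under 1 TPM.

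Of 20 acute phase, alarmin and complement genes 12 were tested, 7 rose and 2 fell, against 32.2% and 56.9% of all tested genes. Of the 12 genes 6 were under 1 TPM in all M0 libraries, and 4 of those 6 rose. Of the other 6 genes 3 rose and 2 fell. The summed share of the list went from 0.660% ± 0.047 to 0.267% ± 0.0044 (SD, n = 3) of TPM, and S100a4 held most of it without stimulation. Saa3, serum amyloid A3, stood at 11.7, 12.2 and 10.7 TPM in the M0 libraries and 157, 171 and 163 TPM in the M1 libraries. S100a8 stood at 0.370, 0 and 0 TPM in the M0 libraries and 52.9, 62.0 and 55.7 TPM in the M1 libraries, while S100a9, its usual partner, was listed at 0 in all 6 libraries. S100a4, among the 10 most abundant genes without stimulation, stood at 6422, 5804 and 6743 TPM in the M0 libraries and 259, 223 and 227 TPM in the M1 libraries (-4.74 ± 0.078). Marcksl1, a substrate of protein kinase C, rose from 65.7 ± 2.2 to 719 ± 11 TPM (3.43 ± 0.037). In the complement system C3 rose from 3.76 ± 0.41 to 40.2 ± 2.4 TPM (3.11 ± 0.085), and Cfb, factor B of the alternative pathway, stood at 0.220, 0.630 and 0.560 TPM in the M0 libraries and 423, 427 and 416 TPM in the M1 libraries. The classical pathway genes C1qa, C1qb and C1qc, and Serping1, were each at 0.5 TPM or less in all 6 libraries.

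Of 15 tested genes that are often used as references 4 rose and 9 fell, close to the shares of all tested genes (32.2% and 56.9%), and after TMM scaling the numbers were 6 and 9. Tbp fell from 52.2 ± 1.1 to 32.2 ± 1.2 TPM (-0.68 ± 0.046), Hprt from 299 ± 17 to 142 ± 4.5 TPM (-1.07 ± 0.038) and Ppia from 7067 ± 106 to 2044 ± 19.6 TPM (-1.79 ± 0.028), while Gapdh rose from 2177 ± 103 to 4088 ± 36 TPM (0.91 ± 0.032). Markers of T, B and natural killer cells, granulocytes, epithelium, fibroblasts, endothelium, erythrocytes and hepatocytes were at or near 0. The 17 such genes in the table together held 0.000241% of TPM without stimulation and 0.000269% under M1, and the only one tested, Cd79a, did not pass the test (0.04 ± 0.10).

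The comparison of the M1 with the M2 libraries of control cells, which shares the M1 libraries with the comparison above, asks which levels differ between the 2 stimulated states. Of 11548 tested genes 3502 (30.3%) were higher and 6818 (59.0%) were lower under M1 than under M2 at an adjusted p below 0.05 by limma. After TMM scaling 48.8% of the called genes were higher, against 33.9% on the deposited scale. All 18 GTPase and 37 antiviral genes were higher under M1, of which 12 and 4 averaged under 1 TPM under M2, so that the filter largely fixed their direction. All 33 mitosis, 22 ribosome biogenesis and 31 oxidative phosphorylation genes were lower, and after TMM scaling 28 of the oxidative phosphorylation genes were lower and 1 higher. Of the mitosis genes 8 were under 1 TPM in all M1 libraries. Some feedback genes with higher values under M1 than M0 were higher still under M2. Socs1 stood at 105 ± 5.1 TPM under M2 against 47.5 ± 5.8 under M1, a log2 difference of -1.14 (adjusted p = 1.60e-09). Cish, another SOCS family gene, stood at 137 ± 6.3 TPM under M2 against 34.1 ± 0.49 under M1 (-1.98, adjusted p = 6.42e-17). Myc, in contrast, was higher under M1, at 58.6 ± 2.5 TPM against 14.6 ± 0.92 (1.93, adjusted p = 5.62e-15). Kdm7a was at 23.3 ± 1.1 TPM under M2 and 29.7 ± 0.85 under M1 (0.34, adjusted p = 0.000128).

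The size of the M1 response was also compared between control cells and the Kdm7a-deficient line by the difference of the responses, control minus deficient. Of 11548 tested genes 2762 (23.9%) had a response that was more positive in control cells and 1399 (12.1%) one that was less positive, and 96 (0.831%) and 65 (0.563%) differed by 2-fold or more. More positive responses made up 66.4% of these calls, and 55.6% after TMM scaling. Kdm7a itself stood at 3.37 ± 0.14 TPM (SD, n = 3) under M0 and 7.49 ± 0.26 TPM under M1 in the deficient line, against 11.1 ± 0.17 and 29.7 ± 0.85 TPM in control cells. Of 18 GTPase genes 4 had a more positive and 2 a less positive response in control cells, close to the 23.9% and 12.1% of all tested genes. Of 37 antiviral genes the numbers were 11 and 2, and of 22 ribosome biogenesis genes 21 and 0. After TMM scaling these numbers were 3 and 2, 10 and 2, and 18 and 0. Ccl2 had the widest difference among the genes named here, 3.55 on the log2 scale (adjusted p = 4.84e-11), and the deficient line stood at 8.89 ± 1.1 TPM under M1. Il1rn followed with 3.16 (adjusted p = 1.67e-13), where the deficient line reached 29.8 ± 1.6 TPM. In the other direction Ccl22 reached 47.4 ± 0.90 TPM in the deficient line, a difference of -2.94 (adjusted p = 7.65e-12). Only 1 deficient and 1 control line were named, so other differences between the lines cannot be told apart from loss of Kdm7a.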

How the data were processed

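RNA-seq of poly(A) RNA from 18 libraries in 6 groups of 3 was used, with groups taken from the sample titles. The authors deposited TPM values per gene symbol. Trim Galore and build mm10 are named in the submitters' processing notes, and which aligner, quantifier and annotation made them is not given in the sources used here. Whole reads could not be recovered from TPM, so depth is unknown and no counting error is given. The labels give no batch, and the groups compared could not be split by one.

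Of 24411 symbols, 7246 were at 0 in all libraries and 11548 had 1 TPM or more in 3 or more libraries and were tested. Values were tested as log2(TPM + 1), with a pseudocount of 1, by limma 3.58.1 in R 4.3.3 (trend and robust moderation). All 18 libraries entered 1 model, so the 6 groups share an estimate of spread. Tests were two-sided, with Benjamini-Hochberg adjustment over all tested genes and a threshold of 0.05. Summaries used Python 3.11.15, pandas 2.3.3 and numpy 2.4.6. The fit was also run on simulated data with far fewer and smaller changes than these data hold, so that run does not cover them. Alternatives were TMM and median-of-ratios factors computed from the TPM, a pseudocount of 0.1, no filter, a filter of 5 TPM, no mean-variance trend, a fit of only the groups compared, a replicate block, and each library left out.

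The members and the 43 gene lists were chosen with earlier results of these data known. The lists hold 821 distinct genes, of which 820 were in the table and 752 were tested. Ly6g was not used here, Acod1, Gsdme and Vsir were found as Irg1, Dfna5 and 4632428N05Rik, and medians of a list cover its tested genes. The text names Kdm7a, the key genes of each list, other list members where a sentence counts them, and the 10 highest genes by mean TPM in each group. Added to these are the called genes without overlap that had the 20 largest rises or the 20 largest falls, provided the higher group averaged 5 TPM or more, and leaving out unnamed gene models. Some genes that the rule would name are not reported here. Symbols were matched to RefSeq for 23194 genes, and promoters came from RefSeq for GRCm38.p6.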

Additional observations from a re-analysis of the deposited data

Results flagged for a closer look

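The M1 response of 26 genes named above differed between control and Kdm7a-deficient cells by 2-fold or more, with an adjusted p below 0.05 in the limma test of the difference of the responses. Values are log2 differences, control minus deficient, with 3 libraries in each of the 4 groups. Whether loss of Kdm7a or another difference between the 2 lines goes with them cannot be told apart.

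The response was more positive in control cells for the chemokine genes Ccl2 (3.55) and Ccl7 (2.2) and for the receptor genes Fpr1 (1.59) and Fpr2 (1.35). Among cytokine genes it was more positive for Il1rn (3.16), Csf3 (1.64), Csf2 (1.39), Ifnb1 (1.20) and Il27 (1.10). The iron genes Slc40a1 (2.18) and Lcn2 (1.69) and the alarmin gene S100a8 (2.29) also differed this way. So did Arg1 (2.37), Prdx1 (1.31), H2-Ab1 (1.17), Ccnb1 (1.17) and Plau (1.10). H2-Ab1, Ccnb1 and Plau fell under M1 in control cells, so for them a more positive response was a smaller fall. Ccnb1 was low under M1 in both lines, at 2.88 ± 0.63 TPM in control and 0.59 ± 0.36 TPM in deficient cells. H2-Ab1 was under 1 TPM in every control M0 and M1 library.

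The response was less positive in control cells for the chemokine gene Ccl22 (-2.94) and the receptor genes Ccr7 (-1.76) and Ccr2 (-1.35). Among lipid genes it was less positive for Msr1 (-1.74), Lpl (-1.44), Idi1 (-1.24) and Abca1 (-1.04). The others were Dcstamp (-1.60) and Cd74 (-1.04). Ccr2, Lpl and Idi1 fell under M1 in control cells, so for them a less positive response was a larger fall.

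The calls of Il27, Lcn2 and S100a8 were lost with a pseudocount of 0.1 TPM (limma adjusted p = 0.0563, 0.0673 and 0.0658). Il27 also lost its call without deficient M0 library 3 (0.92, adjusted p = 0.0544). Arg1 lost its call when only the groups compared were fitted (adjusted p = 0.0695). It also lost it without control M0 library 2 or 3, control M1 library 2 or 3, deficient M0 library 2 or 3, or deficient M1 library 3 (adjusted p = 0.0567, 0.0525, 0.0626, 0.0650, 0.0640, 0.0674 and 0.0666).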

How the results depend on the processing

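Counts of called genes kept within 1.5 times of the reported ones under every alternative run, apart from 6. Genes 2-fold or more higher under M1 than M0 numbered 2592 after TMM and 2532 after median-of-ratios scaling, against 1681. Those 2-fold or more higher under M1 than M2 numbered 2200 and 2257, against 1465. Genes whose response differed 2-fold or more between genotypes numbered 230 (more positive in control cells) and 125 with a pseudocount of 0.1, against 96 and 65. With each library left out in turn, 3626 to 3676 genes were higher and 6485 to 6514 lower under M1 than M0, and 1665 to 1706 and 3553 to 3594 by 2-fold or more. Against M2 these ranges were 3412 to 3479, 6696 to 6754, 1449 to 1484 and 3492 to 3539. For the genotype difference they were 2460 to 2644, 1246 to 1338, 94 to 107 and 57 to 70. Deviations of same-numbered libraries correlated at -0.0146, -0.0340 and -0.00528 for control M0 with M1, and at 0.0739, 0.0891 and 0.0815 for deficient M0 with M1, which enter the genotype difference. Control M2 with deficient M0 gave 0.150, 0.0781 and 0.135. In no 2 groups were all 3 above 0.1, so the numbers were not taken to pair the samples. The fit with the replicate number as a block called 3714 genes higher and 6573 lower under M1 than M0, 3499 and 6816 under M1 than M2, and 2751 and 1390 for the genotype difference, and all 368 tested genes named kept their call and direction. After TMM and median-of-ratios scaling the log2 fold change turned positive for Abcg1 (0.21 and 0.19), Acly (0.22 and 0.20), Erap1 (0.14 and 0.11), Nbn (0.42 and 0.40), Ncf1 (0.30 and 0.28), Ndufs3 (0.25 and 0.22), Rps20 (0.17 and 0.14), Spi1 (0.34 and 0.31), Stat5a (0.070 and 0.046) and Tnfrsf11a (0.46 and 0.43), and for Psmb5 after TMM only (0.012). Both scalings shift every gene of a library by a constant on the log scale before the pseudocount is added. The median of the constitutive proteasome list ran from -0.00026 (without M0 library 1) to 0.029 with a library left out, and that of the osteoclast list was -0.019 with the filter of 5 TPM. The cause was not tested. Among the named genes, C1qb was called higher (1.16) with a pseudocount of 0.1, and Atm and Ccnd3 were called (0.18 and 0.09) with only the groups compared. Depth is unknown, so the precision of low TPM values cannot be given.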
